A study of Mus musculus with 12 samples.

Results

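Cytoplasmic ribosomal proteins are the protein components of the ribosomes that translate nuclear-encoded mRNA. The set described here holds every protein-coding gene whose mouse symbol is Rps or Rpl followed by a number, with at most a closing a, l, x or y, together with Rpsa, Rplp0, Rplp1 and Rplp2. Pseudogenes were left out. The rule found 80 genes among 48709 gene identifiers in each file, of which 21695 were protein coding: 31 of the small subunit, 46 of the large subunit and 3 of the stalk (Rplp0, Rplp1 and Rplp2), the lateral arm of the large subunit that recruits translation factors. The choice used names only and no measured value.

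RNA was sequenced from mouse embryonic cortex of the C57BL/6J strain at the embryonic stage E15.5, in 12 libraries. There were 4 control libraries, 4 labelled as a BAF155 cKO and 4 labelled as a Pax6 cKO. BAF155, encoded by Smarcc1, is a core subunit of the BAF (SWI/SNF) chromatin remodelling complex, and Pax6 is a transcription factor of cortical progenitors. The series lists each cKO against control as its comparisons. The labels give no Cre driver, deleted exon, litter or pooling, and do not say whether libraries within a group are separate embryos. The p-values therefore reflect only the scatter among these libraries, part of which may be technical.

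Ribosomal protein genes are transcribed in every cell, and most of their promoters lack a TATA box. Transcription of most of them starts at a cytosine in a run of pyrimidines, so that the mRNA opens with a terminal oligopyrimidine (TOP) tract, through which mTORC1 and LARP1 set its translation. Mammalian genomes also carry many processed pseudogenes of these genes, near-identical intronless copies, so short reads from one gene can match several places.

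Promoter windows of RefSeq on GRCm38.p6, from 250 bases before to 50 bases after each annotated start, matched 60 of the 80 genes. The windows below run from 30 bases before the start to 19 bases after its first base, 50 bases in all, in the direction of transcription. Capitals mark the longest run of C or T near the start. Rpl35a, Rps24 and Rpl37a are shown because they had some of the smallest adjusted p-values among members in libraries labelled Pax6 cKO, Rpl4 and Rps4x because they were among the flattest genes, and Rps2 because it divided the libraries in another way.
Rpl35a, chr16:33056452-33056501, plus strand: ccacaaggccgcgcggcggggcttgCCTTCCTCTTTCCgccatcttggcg
Rps24, chr14:24490648-24490697, plus strand: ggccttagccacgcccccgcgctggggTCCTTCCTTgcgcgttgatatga
Rpl37a, chr1:72711230-72711279, plus strand: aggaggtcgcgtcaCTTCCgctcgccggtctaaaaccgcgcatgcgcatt
Rpl4, chr9:64173357-64173406, plus strand: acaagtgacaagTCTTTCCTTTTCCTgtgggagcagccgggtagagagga
Rps4x, chrX:102189372-102189421, minus strand: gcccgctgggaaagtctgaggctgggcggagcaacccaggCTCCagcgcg
Rps2, chr17:24720033-24720082, plus strand: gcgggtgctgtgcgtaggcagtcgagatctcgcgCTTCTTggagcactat
The longest run held 13 bases at this start of Rpl35a and 14 at Rpl4, but 5 at Rpl37a and 4 at Rps4x.

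A run of at least 8 pyrimidines on the transcribed-sense strand, reaching within 20 bases of the start, was found for 32 of the 60 matched genes (53.3%). The same was true of 23.7% of 27025 genes with a promoter window. The letters CCGGAAG, the core bound by ETS factors, on either strand stood in the windows of 25 of the 60 (41.7%), against 9.93% of all genes. AAGATGGC, a YY1 motif, stood in 5 of the 60 (8.33%), against 3.19%. Among the 41 matched genes called higher in the libraries labelled Pax6 cKO, 22 held the pyrimidine run and 19 held CCGGAAG. Among the 16 that were tested and not called, 9 and 5 did. These are counts of letters in a window and not of bound sites.

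Some facts of the libraries bear on every value. Total gene counts ran from 15155249 to 32047949 per library. Xist was above 960 CPM (the count scaled to a common library size) in all 4 BAF155 cKO libraries and in controls 3 and 4, with Y-linked genes near 0. It was under 6 CPM in controls 1 and 2 and in all 4 libraries labelled Pax6 cKO, whose summed Y-linked genes were at 293 to 400 CPM. Each cKO group thus held 1 sex and the controls held both. The file names place the controls on lane 8, the libraries labelled Pax6 cKO and BAF155 cKO 1 and 2 on lane 1, and BAF155 cKO 3 and 4 on lane 3, so lane and group cannot be told apart for the comparisons with control. Smarcc1 was at 127 ± 10.8 CPM in the BAF155 cKO libraries against 303 ± 68.7 in controls (SD, n = 4 each). It was also lower in the libraries labelled Pax6 cKO, at a log2 fold change of -0.71 (edgeR adjusted p = 0.00128). Pax6 was at 389 ± 8.74 CPM in the libraries labelled Pax6 cKO against 110 ± 19.1 in controls, a log2 fold change of 1.82 ± 0.12 (SE, edgeR adjusted p = 9.46e-08), which goes against that label. Pax6 was higher in the BAF155 cKO libraries too, by 1.51 (adjusted p = 9.98e-07), and its difference between the cKO groups did not pass (adjusted p = 0.152). No deleted exon is named, so a gene count does not check the deletion itself, and these libraries are called "labelled Pax6 cKO" throughout. The tissue carried its defining cortical markers (Emx1, Tbr1, Neurod6 and others), all of them detected.

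Levels differed widely within the set. Per kb of the principal transcript, Rpl4 was at 633 CPM per kb in controls, and Rps6, the S6 kinase substrate, was lowest of the tested genes at 1.56. By plain CPM, Rpl4 and Rps3 were highest, at control means of 974 and 934, and Rpl23a, Rpl24 and Rps6 were lowest among the tested genes, at 0.931, 1.33 and 1.37. Rps3 lies at the mRNA entry of the small subunit, and Rpl4 and Rpl24 belong to the large subunit.

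The counts followed how much of each transcript is unique. For each gene the 50-base windows of its principal transcript were searched in all other annotated genes, and 76 of the 77 tested genes shared windows with at least 1 other gene. For Rps3 97.0% of windows were unique and for Rpl4 83.5%, against 15.4% for Rps6, 14.3% for Rpl23a and 18.3% for Rpl24. Across the 77 genes, Spearman's rho between CPM per kb of principal transcript and percent unique was 0.55, a description over genes that share libraries. The 27 genes with at least 50% unique windows had a median control CPM of 166, and the 50 others 22.5. How reads matching several places were counted is not given in the sources used here, so the levels of the genes with few unique windows are uncertain. Some genes also overlap annotated neighbours: Rpl35 shares 66.2% of its exon bases with them and Rpl23a 62.3%.

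**Figure D1:**
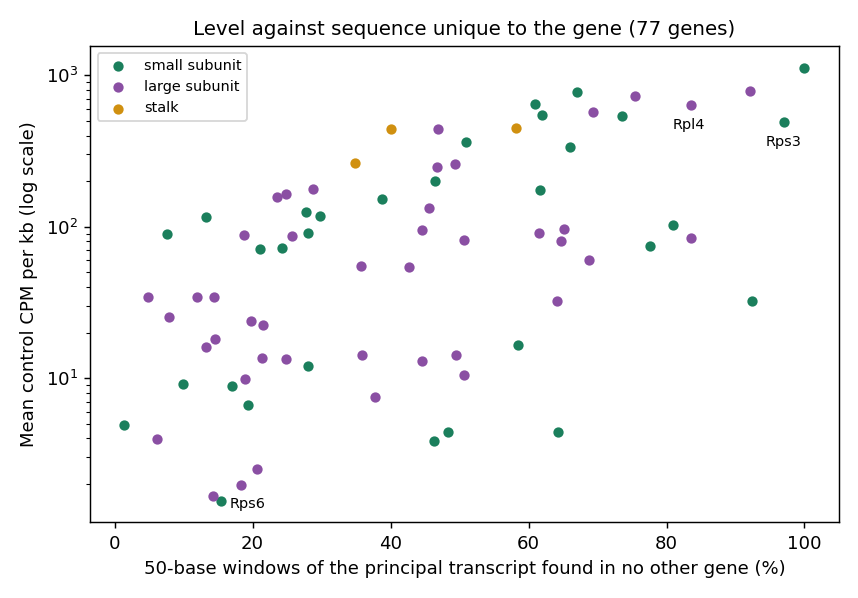
Mean control CPM per kb of principal transcript (vertical, log scale) against the percent of 50-base windows found in no other annotated gene (horizontal), 1 point for each of the 77 tested genes, coloured by subunit. The points rise from left to right, with Rps6 near the bottom left and Rps3 and Rpl4 at the upper right.

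The tissue-restricted paralogs were nearly silent. Rpl10l, known for its role in the testis, had 0 counts in all 12 libraries, which allows at most 3 counts per library. Rpl3l, the paralog of striated muscle, had 0 to 3 counts and Rpl39l, also a testis paralog, 0 to 14. These 3 genes fell below the count filter, and the other 77 were tested. Rps27l, a paralog of Rps27 that is a p53 target, was expressed, at 37.2 ± 5.95 CPM in controls (SD, n = 4).

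In sum the 80 genes took about 1% of all gene counts. The share was 1.16%, 1.11%, 0.868% and 0.819% in controls 1 to 4. It was 1.18%, 1.004%, 1.07% and 1.37% in BAF155 cKO 1 to 4. Libraries 1 to 4 labelled Pax6 cKO had 1.37%, 1.53%, 1.40% and 1.35%. All 4 of the latter lay above all controls, controls 3 and 4 were the lowest of the 12, and the BAF155 cKO libraries overlapped both groups. Counting error is small beside these gaps: the exact Clopper-Pearson 95% interval for control 4 ran from 0.815% to 0.822%, and it covers counting error only. In bulk tissue, fewer cells of a type and less RNA per cell cannot be told apart, and a share moves with every other gene.

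The share of other short genes moved with the ribosomal protein share, and that of mitochondrial genes did so only in part. Protein-coding genes outside the set and outside the mitochondrial ribosome, with a longest annotated transcript under 1000 bases, took 1.91%, 1.84%, 1.40% and 1.40% of counts in controls 1 to 4. They took 2.06%, 1.66%, 1.81% and 2.37% in BAF155 cKO 1 to 4, and 2.30% to 2.48% in libraries labelled Pax6 cKO. Mitochondrially encoded genes took 2.27%, 2.18%, 1.21% and 1.38% in controls and 2.92%, 1.57%, 2.09% and 3.27% in BAF155 cKO. They took 2.91%, 2.04%, 2.83% and 2.68% in libraries 1 to 4 labelled Pax6 cKO. Library 2 of that group had the highest ribosomal protein share of all and the lowest mitochondrial share of its group. Within both the controls and the BAF155 cKO group the libraries with the higher ribosomal protein share also had the higher share of short genes. The part of transcript length or RNA quality in the results was not tested beyond the fit with GC and length offsets given below.

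**Figure D2:**
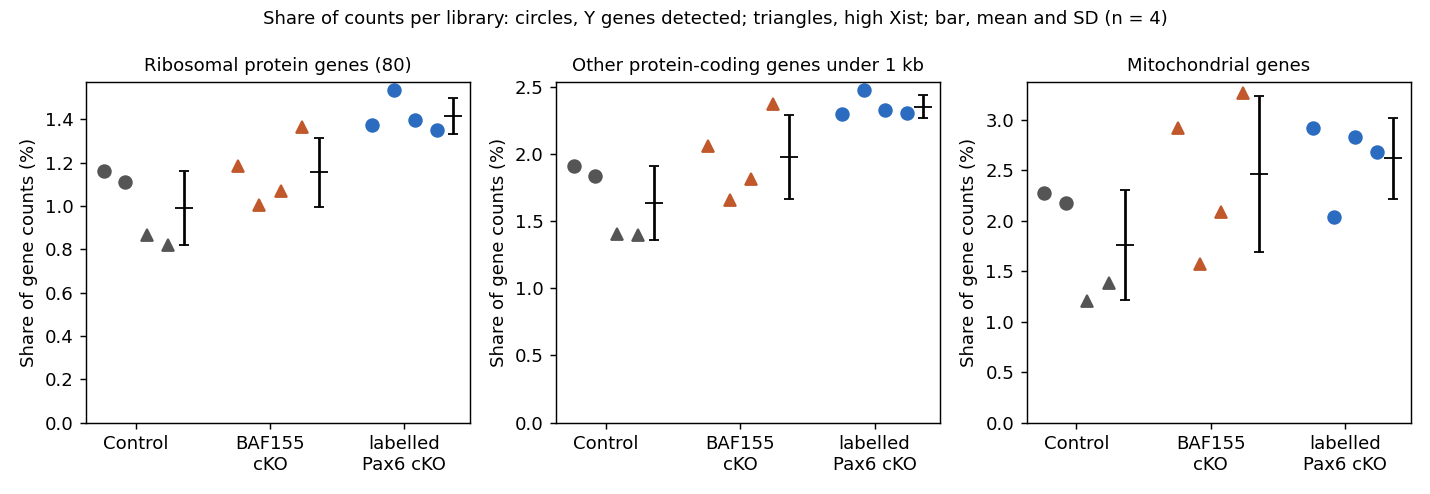
Share of gene counts (vertical, percent) taken by the 80 ribosomal protein genes, by other protein-coding genes with transcripts under 1 kb and by mitochondrially encoded genes, in each library of the 3 groups. Circles mark libraries with Y-linked genes detected, triangles those with high Xist, and the bar at the right of each group its mean and SD (n = 4); controls 3 and 4 are lowest in all 3 panels.

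The libraries labelled Pax6 cKO were compared with the controls first. Most ribosomal protein mRNAs were higher there: 52 of the 77 tested genes rose and 0 fell, against a background of 16.6% of all 16511 tested genes higher and 18.9% lower. The log2 fold change was above 0 for 76 of the 77, with a median of 0.50, where the median of all tested genes was 0.02. The 4 libraries lay above all 4 controls for 53 of the 77, against 17.2% of all tested genes. The same comparison called 207 of 422 short genes outside the set higher (49.1%) and 2 lower, with a median of 0.43.

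Genes of the small subunit rose in 25 of 31 cases, with a median log2 fold change of 0.56. Rps24, a gene with a processing role in pre-ribosomal RNA, was at 211, 198, 130 and 125 CPM in controls 1 to 4. Libraries labelled Pax6 cKO had 272, 286, 299 and 295 CPM. The groups did not overlap, and controls 3 and 4 were lowest. Rps24 rose by 0.80 ± 0.17 on the log2 scale (SE, edgeR adjusted p = 0.00349). Rps14, a platform protein of the small subunit, went from 402, 368, 283 and 258 CPM to 520, 628, 522 and 568. Its 4 higher libraries also stood apart from all controls, by a log2 fold change of 0.77 ± 0.14 (adjusted p = 0.00129).

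Rps3 rose by 0.63 ± 0.14 on the log2 scale (adjusted p = 0.00425) and is a gene whose transcript is nearly all unique. Rpsa, which also serves as the laminin receptor, rose from 6.13 ± 1.07 to 8.95 ± 1.06 CPM (SD, n = 4 each, adjusted p = 0.0109). Rps27a, made as a fusion with ubiquitin, rose from 7.70 ± 1.22 to 12.8 ± 0.877 CPM (adjusted p = 0.00659). Rps27l rose from 37.2 ± 5.95 to 57.5 ± 1.85 CPM (adjusted p = 0.00655). The 6 tested small-subunit genes that did not pass included Rps4x, Rps6, Rps29, Rps16 and Rps2, with log2 fold changes from 0.06 to 0.63.

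Genes of the large subunit rose in 26 of 43 tested cases, with a median of 0.44. Rpl35a, a Diamond-Blackfan anaemia gene, was at 77.2, 76.1, 54.9 and 52.0 CPM in controls 1 to 4. Libraries labelled Pax6 cKO had 104, 115, 113 and 106 CPM. The groups did not overlap, and Rpl35a rose by 0.75 ± 0.14 on the log2 scale (SE, adjusted p = 0.00156). Rpl37a went from 58.9, 52.7, 48.1 and 42.3 CPM to 64.5, 79.6, 69.9 and 72.0, again with no overlap, a change of 0.50 ± 0.11 (adjusted p = 0.00368). Rpl24 had the largest called change, 0.86 ± 0.25 (adjusted p = 0.0168), at a level of only 1.33 ± 0.537 CPM in controls, and 47.0% of its exon bases lie in a second annotated gene. The call was lost without control 3 or 4 (adjusted p = 0.0572 and 0.0574).

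Not every abundant gene followed. Rpl4 was at 887 to 1089 CPM in libraries labelled Pax6 cKO and at 946 to 1036 in controls, with a log2 fold change of 0.02 ± 0.10 (adjusted p = 0.894). Rpl28 was the only tested gene below 0, at -0.05 ± 0.13 (adjusted p = 0.805). Rpl8, which binds near the peptidyl transferase centre, was at 0.20 ± 0.09 (adjusted p = 0.0966). Besides these and Rpl29, the large-subunit genes that did not pass included Rpl5, Rpl9, Rpl10a, Rpl11, Rpl12, Rpl13, Rpl19, Rpl21, Rpl23, Rpl23a, Rpl27 and Rpl36, with log2 fold changes from 0.16 to 0.57. Rpl5 and Rpl11, which bind Mdm2 outside the ribosome, were at 0.43 ± 0.20 and 0.38 ± 0.14 (adjusted p = 0.101 and 0.0529). In the stalk, Rplp0 rose by 0.34 ± 0.11 (adjusted p = 0.0299), a call lost without control 3 or 4 or labelled Pax6 cKO 2 or 3 (adjusted p = 0.0616 to 0.110), and Rplp1 and Rplp2, its acidic partners, were at 0.32 ± 0.14 and 0.32 ± 0.13 (adjusted p = 0.0876 and 0.0643).

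**Figure D3:**
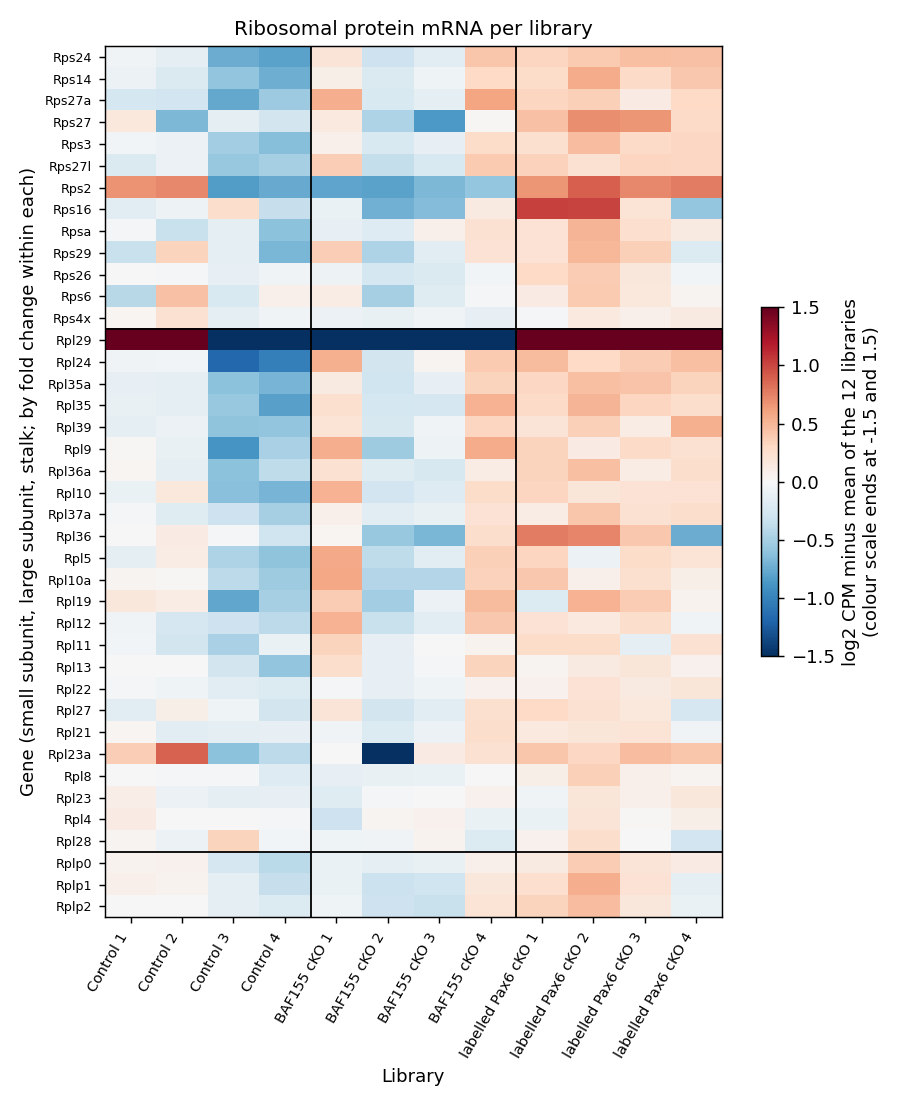
Log2 CPM of the 40 tested genes named in the text (rows, by subunit and within it by log2 fold change of the libraries labelled Pax6 cKO against control) in the 12 libraries (columns), minus the gene's mean over the 12. Red is above that mean and blue below it. Controls 3 and 4 and BAF155 cKO 2 and 3 are mostly blue, and the libraries labelled Pax6 cKO mostly red. Rpl29 and Rps2 divide controls 1 and 2 from controls 3 and 4.

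The 4 X-linked genes did not move alike. Rpl39 rose by 0.64 ± 0.14, Rpl36a by 0.54 ± 0.15 and Rpl10 by 0.51 ± 0.19 on the log2 scale (adjusted p = 0.00402, 0.0108 and 0.0481). The call of Rpl10 was lost without control 3 or 4 or any 1 of the labelled Pax6 cKO libraries (adjusted p = 0.0698 to 0.151), and with pseudogene counts added (adjusted p = 0.0541). Rps4x was at 121 ± 13.2 CPM in controls and 126 ± 7.14 in the libraries labelled Pax6 cKO (SD, n = 4 each), a change of 0.06 ± 0.08 (adjusted p = 0.598).

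The result depended on which controls were used. Against controls 1 and 2 alone, which are of the same sex as the libraries labelled Pax6 cKO, 2 genes of 78 rose, Rpl35a (0.52, adjusted p = 0.0355) and Rps14 (0.54, adjusted p = 0.0293), where the background was 3.07% higher and 4.9% lower, so the count was at the background. The direction stayed in most genes: 75 of the 78 were above 0, with a median of 0.30. Against controls 3 and 4 alone, 58 of 77 rose, with a median of 0.69 and a background of 18.1%. With offsets for GC content and transcript length in the fit, 31 of 77 rose and 1 fell, with a median of 0.29 and a background of 11.5% higher and 14.7% lower. The gene that fell was Rps4x, at -0.26 (adjusted p = 0.047).

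The BAF155 cKO libraries were next compared with the same 4 controls. A single gene, Rps27a, rose and 0 fell, against a background of 6.04% higher and 7.56% lower. At an unadjusted p under 0.05 there were 27 of 77 genes, close to the 32.8% of all tested genes, and DESeq2 called 5 higher and 1 lower (background 8.35% and 9.29%). The median log2 fold change was 0.24, with 63 of 77 genes above 0, where the median of all tested genes was 0.01. The 4 BAF155 cKO libraries lay above all controls for 1 gene, against 6.47% of all tested genes.

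Rps27a was at 8.76, 8.62, 6.19 and 7.21 CPM in controls 1 to 4. It was at 15.4, 8.99, 9.51 and 15.9 CPM in BAF155 cKO 1 to 4. The groups did not overlap, but BAF155 cKO 2 lay close to control 1. Rps27a rose by 0.69 ± 0.18 on the log2 scale (SE, adjusted p = 0.0228), and the call was lost when BAF155 cKO 1 or 4 or control 3 or 4 was left out (adjusted p = 0.0599 to 0.0854). Only 28.1% of its 50-base windows are unique to Rps27a.

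The BAF155 cKO libraries did not form a tight group. Of the 77 tested genes, 55 in BAF155 cKO 1 and 69 in BAF155 cKO 4 lay above the gene's mean over the 12 libraries, but 2 in BAF155 cKO 2 and 8 in BAF155 cKO 3. Rps24 shows this, at 249, 176, 195 and 290 CPM in BAF155 cKO 1 to 4. Libraries 1 and 2 were on lane 1 and 3 and 4 on lane 3. Without BAF155 cKO 2 the count of genes higher rose to 23, against a background of 11.8%, and without control 1 to 16, against 8.22%.

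Against controls 3 and 4 alone, of the same sex as the BAF155 cKO libraries, 40 of 77 genes rose and 0 fell, with a median log2 fold change of 0.44 and a background of 10.7% higher and 14.5% lower. They included Rps24 at 0.82 (adjusted p = 0.0036), Rps14 at 0.68 (adjusted p = 0.00443) and Rpl35a at 0.67 (adjusted p = 0.00535). Of the 422 short genes outside the set, 139 rose in the same fit (32.9%). Against controls 1 and 2 alone, 0 rose and 2 fell, Rpl29 and Rps2, with a median of 0.04 and a background of 1.76% higher and 3.54% lower. The 2 same-sex comparisons set each cKO group against a different pair of controls and share no compared library. In both of them 68 of the 77 genes were above 0 (88.3%), against 40.7% of 17051 genes tested in both. A median above 0 in both was not particular to the set. The 422 short genes outside it had medians of 0.35 for BAF155 cKO and 0.30 for labelled Pax6 cKO in these fits. In the latter fit 34 of them rose (8.06%), against 3.07% of all tested genes. Genes of the mitochondrial ribosome had medians of 0.18 and 0.22 in the same order.

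**Figure D4:**
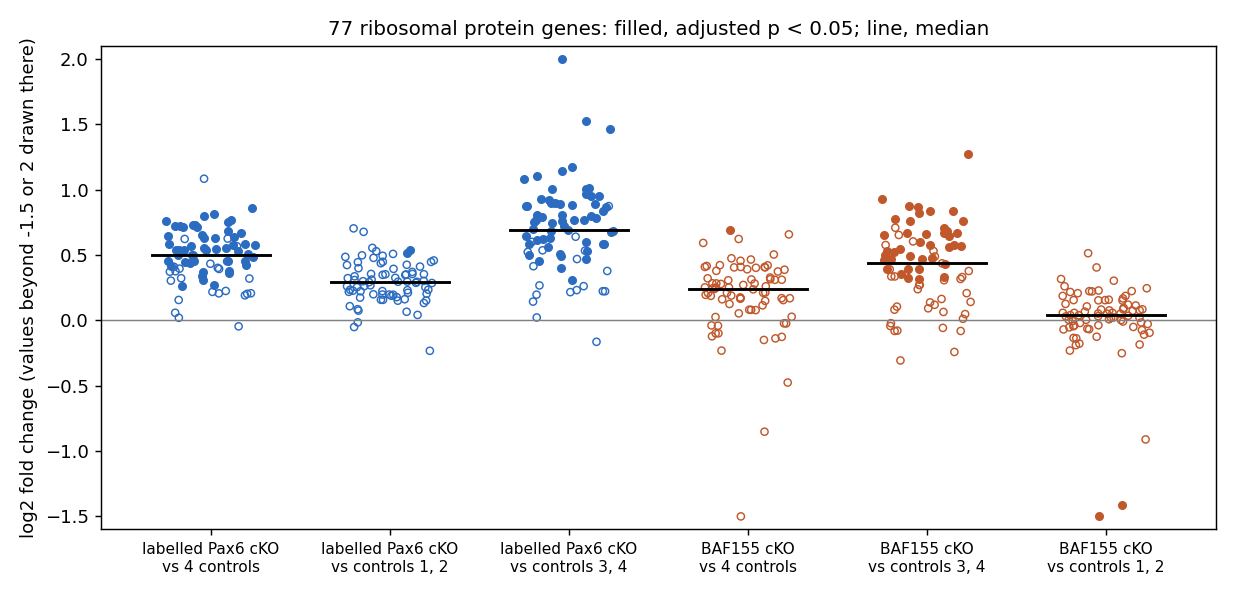
Log2 fold change (vertical) of the 77 tested genes in each comparison with control (columns), with all 4 controls, with the pair of the same sex and with the pair of the other sex. Filled points have an adjusted p under 0.05 and the line is the median, which is 0.50, 0.30 and 0.69 for the libraries labelled Pax6 cKO and 0.24, 0.44 and 0.04 for the BAF155 cKO libraries.

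The cKO groups were then set against each other. In the BAF155 cKO libraries 3 genes were lower than in those labelled Pax6 cKO and 0 were higher, where the background was 2.01% lower and 2.3% higher. The median log2 difference was -0.26, with 74 of 77 below 0, and the groups did not overlap for 11 genes, against 7.83% of all tested genes. The 3 genes were Rpl29, Rps2 and Rps26. Rps26, which contacts mRNA upstream of the start codon, was at 117, 102, 106 and 120 CPM in BAF155 cKO 1 to 4 and at 151, 161, 139 and 120 in the libraries labelled Pax6 cKO. BAF155 cKO 4 and labelled Pax6 cKO 4 met, and the difference was -0.36 ± 0.09 (SE, adjusted p = 0.0369). The call was lost when any of 6 libraries was left out in turn: all but BAF155 cKO 4 and labelled Pax6 cKO 4 (adjusted p = 0.0557 to 0.117).

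Rpl29 and Rps2 divided the libraries in a way that no group label gives. Rpl29, a small basic protein of the large subunit, was at 26.1, 24.3, 1.16 and 0.908 CPM in controls 1 to 4. It was at 1.13, 1.46, 1.27 and 1.15 CPM in BAF155 cKO 1 to 4, and at 27.2, 32.1, 28.9 and 24.5 in libraries labelled Pax6 cKO. Controls 1 and 2 thus sat with the latter, and controls 3 and 4 with BAF155 cKO. The division is that of Xist and the Y-linked genes, although Rpl29 lies on chromosome 9 (chr9:106429454-106431568).

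Rps2, a protein at the mRNA entry of the small subunit, on chromosome 17 (chr17:24718116-24721929), followed the same division. It was at 102, 106, 35.9 and 38.2 CPM in controls 1 to 4. It was at 37.0, 36.8, 40.1 and 43.03 CPM in BAF155 cKO 1 to 4 and at 101, 120, 106 and 110 in the libraries labelled Pax6 cKO. The differences between the cKO groups were -4.48 ± 1.03 for Rpl29 and -1.48 ± 0.30 for Rps2 (SE, adjusted p = 0.0424 and 0.0177). The call of Rpl29 was lost when any of the 8 libraries was left out in turn (adjusted p = 0.074 to 0.117), and that of Rps2 without BAF155 cKO 1, 2 or 3 or labelled Pax6 cKO 2 (adjusted p = 0.0505 to 0.0911). These errors and adjusted p-values rest on a spread fitted over all 3 groups, and the controls were themselves divided for both genes. A lost call therefore does not mean that the cKO groups met, and they did not overlap for either gene. Within the same sex the differences from control were small and did not pass: Rpl29 was at 0.27 and 0.16 and Rps2 at 0.06 and 0.07 in the BAF155 cKO and labelled Pax6 cKO comparisons (adjusted p = 0.415, 0.472, 0.641 and 0.723). Sex and any other trait that divides these libraries in this way cannot be told apart.

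**Figure D5:**
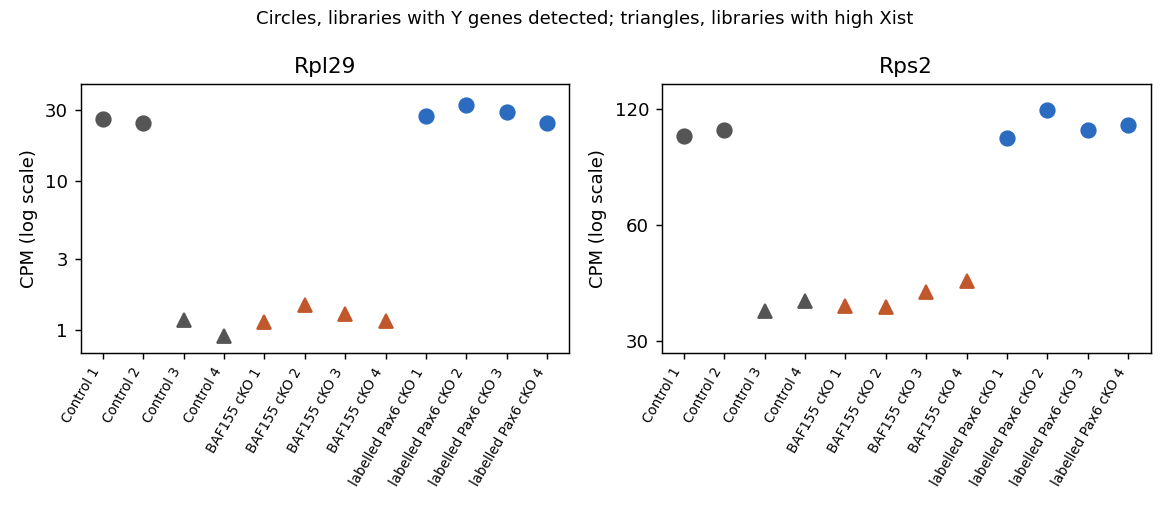
CPM (vertical, log scale) of Rpl29 and Rps2 in each of the 12 libraries (horizontal), coloured by group. Circles are libraries with Y-linked genes detected and triangles those with high Xist: all 6 triangles lie below all 6 circles in both panels.

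Both genes have many copies. Windows of Rpl29 were found in 84 other annotated genes, 81 of them pseudogenes, and those of Rps2 in 71, all pseudogenes. The most widely shared 50-base window of each coding sequence is shown. A read that lies wholly within such a window matches several genes alike.
Rpl29, coding bases 211 to 260, identical in 30 other genes: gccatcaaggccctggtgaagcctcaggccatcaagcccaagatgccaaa
Rps2, coding bases 653 to 702, identical in 33 other genes: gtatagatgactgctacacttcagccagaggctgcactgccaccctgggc
The summed level of the genes that share windows did not divide the libraries as the parent gene did. It was 39.3 to 61.4 CPM for Rpl29 and 6.47 to 11.4 CPM for Rps2 over the 12 libraries, with controls 1 and 2 beside controls 3 and 4 in both. A sum does not show how each copy behaved.

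Related gene lists were measured alongside. Genes of the mitochondrial ribosome, which translates the mitochondrial genome, rose in the libraries labelled Pax6 cKO in 44 of 77 tested cases and fell in 0, with a median of 0.32. That is 57.1% higher, against the 16.6% of all tested genes, but against controls of the same sex 3 of 77 rose (3.9%), where the background was 3.07%. Mrpl18 rose from 36.8 ± 1.53 to 53.8 ± 2.82 CPM (SD, n = 4 each, adjusted p = 0.00065) and Mrpl50 from 84.9 ± 12.1 to 127 ± 6.68 (adjusted p = 0.000984). Of 7 tested ribosomal protein genes outside the naming rule, 4 rose and 0 fell, and 0 passed against controls of the same sex. Among the 4, Rack1, a scaffold on the small subunit, rose by 0.43 ± 0.12 (adjusted p = 0.0133) and Rpl22l1, the paralog of Rpl22, by 0.57 ± 0.16 (adjusted p = 0.015). In the BAF155 cKO libraries 6 of 77 mitochondrial ribosomal protein genes rose (7.79%), near the 6.04% of all tested genes, and 0 fell. Against controls of the same sex 29 of 77 rose (37.7%), against 10.7%. Mrpl3 had the smallest adjusted p with 4 controls, at 0.35 ± 0.07 (adjusted p = 0.00627).

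Genes that make or regulate ribosomes did not rise as a list. In the libraries labelled Pax6 cKO 8 of 50 biogenesis factors rose and 16 fell, with a median of -0.14. These are 16% and 32%, where 16.6% of all tested genes rose and 18.9% fell. Emg1, a methyltransferase of ribosomal RNA, rose by 0.51 ± 0.10 (adjusted p = 0.00165), and Rrp12, a factor of ribosomal subunit export, fell by 0.67 on the log2 scale (SE 0.11, adjusted p = 0.000452). Of 24 RNA polymerase I and III genes 7 rose and 7 fell (29.2% each), both above the background, with a median of -0.14. Against controls of the same sex 1 of 24 rose and 1 fell (4.17% each), where the background was 3.07% and 4.9%. Polr1a, the largest subunit of polymerase I, was among those that fell, at -0.66 ± 0.12 (adjusted p = 0.000943). Of 22 genes of mTORC1, S6 kinase, LARP1 and Myc 0 rose and 12 fell (54.5%), with a median of -0.31. They included Larp1, which binds TOP mRNAs, at -0.49 ± 0.10 (adjusted p = 0.00181), and Eif4ebp2, a repressor of cap-dependent translation, at -0.62 ± 0.13 (adjusted p = 0.00276).

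Of 18 translation factors whose mRNAs also carry a TOP tract, 7 were higher in the libraries labelled Pax6 cKO (38.9%) and 3 lower (16.7%). Of all tested genes 16.6% were higher and 18.9% lower, so the lower count was near the background. With GC and length offsets 2 were higher (11.1%) and 4 lower (22.2%), against 11.5% and 14.7%. Against controls of the same sex 0 of 18 passed in either direction. Eif3h rose by 0.57 ± 0.12 (adjusted p = 0.00249). Eef2, the translocation factor, fell from 2496 ± 324 to 1726 ± 200 CPM (SD, n = 4 each, adjusted p = 0.00777), and Pabpc1, the poly(A)-binding protein, from 316 ± 57.2 to 210 ± 11.1 (adjusted p = 0.00378). Eef2 and Pabpc1 fell in the BAF155 cKO libraries too, at -0.49 ± 0.14 and -0.52 ± 0.13 (adjusted p = 0.0293 and 0.0178). Genes of the p53 response gave 3 higher and 3 lower of 20 in the libraries labelled Pax6 cKO, 15% each, which is near the background. Eda2r rose by 1.06 ± 0.16 (adjusted p = 0.000261) and Btg2 fell by 0.62 (SE 0.10, adjusted p = 0.000397).

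In the BAF155 cKO comparison with 4 controls, 2 of 50 biogenesis factors were higher (4%) and 3 lower (6%). Of 24 polymerase genes 1 was higher (4.17%). Of 22 mTORC1 and Myc genes 1 was lower (4.55%), Mycn, at -0.50 ± 0.13 (adjusted p = 0.0189). Of 20 p53 genes 1 was lower (5%). These shares were not above those of all tested genes, 6.04% higher and 7.56% lower. Against the controls of the same sex, 5 of 50 biogenesis factors rose (10%) and 16 fell (32%), and 9 of 22 mTORC1 and Myc genes fell (40.9%). Of the polymerase genes 2 of 24 rose (8.33%) and 5 fell (20.8%) in that fit, where the background was 10.7% higher and 14.5% lower. For the libraries labelled Pax6 cKO the same-sex counts were 1 higher and 1 lower of 50 (2% each), and 0 of 22, below the background of 3.07% and 4.9%.

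Markers of cell types moved with the groups as well. In the libraries labelled Pax6 cKO all 3 markers of basal intermediate progenitors fell, and their summed level was 170 to 180 CPM against 375 to 641 in controls. Of 7 neuronal markers 5 fell (4492 to 5255 against 5714 to 6676 CPM), and of 6 progenitor markers 4 fell and 1 rose (1928 to 2114 against 2135 to 2256 CPM). All 4 ventral telencephalic markers rose (1082 to 1173 against 416 to 623 CPM). Of 4 dorsal telencephalic markers 3 fell (579 to 648 against 681 to 1048 CPM), among them Emx1 at -1.36 (adjusted p = 0.000218). Their sum was 681 and 746 CPM in controls 1 and 2, and 1048 and 993 in controls 3 and 4. Of all tested genes 16.6% rose and 18.9% fell. With same-sex controls, 2 of 3 basal progenitor, 4 of 7 neuronal, 3 of 6 progenitor and 1 of 4 dorsal markers fell. In that fit 3 of 4 ventral and 0 progenitor markers rose, and the background was 3.07% higher and 4.9% lower.

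Of 8 erythroid markers 2 rose, the adult beta-globin genes Hbb-bs and Hbb-bt, which make up most of the list's sum (499 to 557 against 270 to 372 CPM). Hbb-y, Slc4a1 and Alas2 were at -1.43, -0.44 and -0.04 and did not pass, and the list's median was 0.16 and became -0.09 with GC and length offsets. The summed choroid plexus markers were at 24.1, 325, 101 and 202 CPM in libraries 1 to 4 labelled Pax6 cKO, against 16.01 to 33.4 in controls and 6.47 to 19.98 in BAF155 cKO, with 1 of 3 tested markers called higher. Liver genes, which do not belong to the tissue, were high in some BAF155 cKO libraries. Alb, the serum albumin gene, was at 0.621, 1.11, 25.9 and 157 CPM in BAF155 cKO 1 to 4 and at most 0.141 in the other 8 libraries. Apoa1 followed it, at 0.660, 0.571, 2.79 and 13.1 CPM, and both were called higher than in controls (adjusted p = 0.0316 and 0.021). Against controls of the same sex 0 of 5 liver genes passed in the BAF155 cKO libraries. In the libraries labelled Pax6 cKO 0 of 8 erythroid and 0 of 3 choroid plexus markers passed in that way. Every marker of these lists had counts in at least 1 library. In the BAF155 cKO libraries the summed levels were 164 to 290 CPM for basal intermediate progenitors, 4045 to 5377 for neurons and 1667 to 1885 for progenitors. They were 519 to 763 for dorsal, 878 to 1039 for ventral and 341 to 663 for erythroid markers. Against the 4 controls, 2 of 3 basal progenitor, 4 of 7 neuronal, 3 of 6 progenitor and 2 of 4 dorsal markers fell there. In that fit 3 of 4 ventral and 1 of 8 erythroid markers rose, and the background was 6.04% higher and 7.56% lower. With same-sex controls, 3 of 3, 5 of 7, 3 of 6 and 4 of 4 fell in the same order (background 14.5%). The part of cell makeup in the ribosomal protein values was not tested.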

How the data were processed

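The deposited files hold whole-number counts per gene, 1 file for each of the 12 libraries, and per the submitters' processing notes the build was mm10. Which aligner and counter made them, with what strand setting, is not given in the sources used here. Per the labels' protocols, RNA came from a column kit of Qiagen and libraries from the Illumina TruSeq RNA kit. Depth was 15155249 to 32047949 counts per library. No 2 libraries agreed within counting noise (lowest chi-square per gene 2.89), so none was merged.

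Gene names, lengths and GC content came from GENCODE M21, which matched 48349 of the 48709 identifiers. Counts were filtered with filterByExpr and scaled by TMM. They were tested with edgeR 4.0.16 (limma 3.58.1, R 4.3.3) by its robust quasi-likelihood test, in 1 fit of 12 libraries with 3 group means. Adjusted p-values are Benjamini-Hochberg over the 16511 genes tested, and a gene was called at an adjusted p under 0.05. CPM is on TMM-scaled library sizes, and log2 deviations from a mean used CPM plus 0.5. Fold changes are edgeR's, positive where the first-named group is higher. Fits with controls of 1 sex kept the other cKO group, so that 10 libraries gave the spread. GC and length offsets came from a loess (span 0.3) of each library. The fit was tested on simulated data drawn from these libraries.

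Members, lists and tests were chosen with earlier results of these data known. Members named were the paralogs, the stalk genes, Rpsa and Rps27a, the X-linked genes, up to 5 called genes of smallest adjusted p in each direction, the 3 highest and 3 lowest by control CPM, the 2 largest and 2 smallest fold changes, and those below the filter. Of each related list, up to 2 called genes per direction were named. Some genes that these rules take are not reported here. Rps3, Rpl8, Rpl5 and Rpl11 were chosen after their values were seen. Other scalings, DESeq2 1.42.0, limma-voom, filters, a replicate block, offsets, pseudogene counts added (267 genes named for 58 members), lanes and single libraries left out were tried. The controls of the other sex, the members with at least 50% unique windows and the length of the principal transcript were added after seeing the data.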

Additional observations from a re-analysis of the deposited data

Results flagged for a closer look

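Rpl4 had 1 control library apart from the other 3: control 1 was at 1036 CPM, and controls 2 to 4 at 946 to 957. The gap was 0.873 of the group's range, above Dixon's 95% critical value for 4 libraries. This was 1 of 84 groups of values checked, and chance alone passes about 5% of such groups.

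For 3 genes the departures of the cKO groups from control differed from each other, by the direct contrast of BAF155 cKO with the libraries labelled Pax6 cKO in edgeR. The log2 difference was -4.475 for Rpl29, -1.478 for Rps2 and -0.36 for Rps26. For Rpl29 and Rps2 all 4 BAF155 cKO libraries lay below all 4 labelled Pax6 cKO.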

How the results depend on the processing

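For BAF155 cKO against control, 1 gene was called. The count was 2 with total-count scaling, 2 without a filter on low counts and 0 with only the 8 libraries compared. It was 6 with DESeq2, where 8.35% of all tested genes were higher and 9.29% lower. With GC and length offsets it was 4, of which 2 were higher and 2 lower (background 5.55% and 7.16%). It was 40 with controls of the same sex, all higher (background 10.7%), and 2 with those of the other sex, each lower (background 3.54%). It was 0 and 2 with the BAF155 cKO libraries of lane 1 or lane 3 alone, and 0 over members with at least 50% unique windows. With 1 library left out it ran from 0 to 23, and 11.8% of all tested genes were higher in the fit that gave 23. For the libraries labelled Pax6 cKO, the count of 52, all higher (background 16.6%), became 2 with controls of the same sex, also higher (background 3.07%). It was 32 with the offsets, 31 higher and 1 lower (background 11.5% and 14.7%). It was 20 over the 27 members with at least 50% unique windows, and 38 to 55 with 1 library left out. Their median of 0.50 became 0.30 and 0.69 with controls of the same and the other sex and 0.29 with the offsets. Between the cKO groups, the count of 3, all lower (background 2.01%), became 7 with DESeq2, where the background was 4.85% higher and 4.13% lower. It was 0 with either lane of BAF155 cKO, 1 over the members with at least 50% unique windows, and 0 to 4 with 1 library left out. The shares over all genes in the remaining fits are not given here. Rps4x against control in the libraries labelled Pax6 cKO turned to -0.26 and Rps26 to -0.071 (adjusted p = 0.587) with the offsets. The cause of each of these changes was not tested. The medians kept their sign with any 1 library left out: 0.15 to 0.32, 0.42 to 0.56 and -0.35 to -0.18 in the same order. The share of counts per library moved by less than the spread between replicates when mitochondrial genes were left out or pseudogenes added.

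The labels number the libraries 1 to 4 in each group, but same-numbered libraries did not all deviate together. Their correlations ran from -0.30 to 0.28 for BAF155 cKO and control, from -0.11 to 0.13 for labelled Pax6 cKO and control, and from -0.23 to 0.46 between the cKO groups, where numbers 1 and 2 were at 0.46 and 0.36. With a replicate block the counts were 2, 53 and 1 in the order above. Of all tested genes 6.37%, 16.7% and 1.51% were higher in those fits and 7.23%, 17.8% and 1.5% lower. With the replicate block and the offsets together they were 3 for BAF155 cKO and 30 for labelled Pax6 cKO, whose median was 0.29. Rps26 was then at -0.077 and Rps4x at -0.26.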

Other observations

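Rpl29 and Rps2 were not alone in dividing the libraries by more than 2-fold as Xist and the Y-linked genes do. Among tested genes, 11 autosomal ones did so, and 5 of them are processed pseudogenes, higher in the 6 libraries with high Xist. Gm9825 was at 16.3 to 27.3 CPM in those libraries and at 0.0873 to 0.463 in the other 6, and Gm11868 at 9.38 to 11.5 against 0.0437 to 0.474. Atp6v0c-ps2, Gm15610 and Gm6916 followed the same pattern. Hbb-y, the embryonic beta-like globin, was at 6.87 to 11.99 CPM against 0.760 to 2.19, and the others were Prss41, Tagap and E230020A03Rik. None of the 5 pseudogenes shares a 50-base window with a ribosomal protein gene.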
